A study of Bos taurus with 8 samples.

Results

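The miRNAs bta-miR-18a, bta-miR-18b, bta-miR-19a and bta-miR-19b were followed in bovine sera and in exosomes isolated from those sera. They were chosen by name, as the mature miR-18 and miR-19 of the miR-17-92 and miR-106a-363 clusters, and the rule uses no measured value. All 4 were listed among the 534 bovine miRNAs of the deposited tables, and all 4 were among the 365 miRNAs that reached more than 1 RPM (reads of a miRNA per 1000000 miRNA reads of the library) in 2 or more cattle, in sera or in exosomes. These 365 miRNAs were tested for differential expression.

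Blood was taken from 4 healthy lactating Holstein cows, with no treatment, and the ages are not in the labels. One small RNA library was made from the serum of each cow and another from exosomes, small vesicles that cells release, so that 4 sera libraries were compared with 4 exosome libraries of the same cows. RNA of sera was extracted with a Norgen kit, whereas exosomes were isolated and extracted with Invitrogen kits, so extraction and sample type cannot be told apart. Serum holds the RNA of its exosomes as well as RNA outside them, and exosome libraries are named by the isolation kit, since no vesicle marker was measured in these files.

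In mammals the miR-17-92 cluster is transcribed as 1 primary RNA, from which several hairpins are cut. The cluster is activated by MYC, is known for driving cell growth and B-cell lymphoma, and has a paralog, miR-106a-363, on the X chromosome. miR-19a and miR-19b share a seed and carry much of the oncogenic activity of the cluster, whereas miR-18a and miR-18b share another seed and are known to repress the oestrogen receptor and CTGF. In the order of bovine RefSeq genes (assembly ARS-UCD2.0, used here for names and neighbours only), MIR17, MIR18A, MIR19A, MIR20A, MIR19B and MIR92A-1 lie side by side in the miR-17-92 cluster. MIR106A, MIR18B, MIR20B, MIR19B-2, MIR92A-2 and MIR363 lie side by side in its paralog. Therefore bta-miR-18a and bta-miR-19a have 1 hairpin gene each in the first cluster, bta-miR-18b has 1 in the second, and mature bta-miR-19b can come from either, so that its reads cannot be assigned to a locus. The members of each pair are also near-identical in sequence, and how reads that match both were assigned is not given in the sources used here. No member had the same values in all libraries as another listed miRNA.

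The sera libraries held 264769 to 590162 miRNA reads and the exosome libraries 60682 to 157710. One read therefore equalled 1.69 to 3.78 RPM in a serum library and 6.34 to 16.5 RPM in an exosome library, and exosome values of low miRNAs rest on fewer reads. Intervals and floors cover counting error only, because PCR copies of a molecule are counted as separate reads. Summed RPM of the 3 red blood cell markers (bta-miR-451, bta-miR-486, bta-miR-144) ranged from 154727 to 238990 in sera and from 195396 to 384859 in exosomes. The larger sum in exosomes came from bta-miR-486 (158802 ± 31862 RPM in sera against 267558 ± 72036 RPM), while bta-miR-144 was lower there (699 ± 128 against 326 ± 65.8 RPM, log2FC 1.10, limma FDR = 0.0149) and bta-miR-451 had a log2FC of 0.00. The 2 platelet and myeloid markers summed to 4809 to 7017 RPM (sera) and 2581 to 3719 RPM (exosomes). The 3 leukocyte markers summed to 27294 to 35536 and 29364 to 42764 RPM in the same order, and the 2 liver markers to 31518 to 57479 and 22081 to 57216 RPM. Nearly all of the liver sum was bta-miR-192, with a mean of 48188.6 RPM in sera and 37236 RPM in exosomes. The other liver marker, bta-miR-122, averaged 58.725 RPM in sera and 24.75 RPM in exosomes, with 0 reads in the exosomes of cow 1. The bta-miR-451 to bta-miR-23a ratio, used in serum as a sign of haemolysis, was 3.36 to 9.35 in sera. It was 6.31 to 21.1 in exosomes of the same sera, where its denominator bta-miR-23a was lower in each cow (log2FC 0.99, limma FDR = 0.0198). The part of these cell sources in the results on miR-18 and miR-19 was not tested.

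In all 8 libraries the 4 miRNAs stood in the same order by RPM, bta-miR-19b above bta-miR-19a, bta-miR-19a above bta-miR-18a and bta-miR-18a above bta-miR-18b, and the ranges of neighbours in this order did not overlap. A mature miRNA gives 1 read whatever its length, but the efficiency of adaptor ligation differs between miRNAs and was not corrected, so the order is one of read shares. Together the 4 made up 0.155% ± 0.0296 (SD, n = 4) of the miRNA reads in sera and 0.184% ± 0.0248 (n = 4) in exosomes. The sum of the miR-19 pair was 1412 ± 268 RPM in sera against 1740 ± 248 RPM in exosomes, and that of the miR-18 pair 142.8 ± 29.0 against 102.2 ± 13.6 RPM.

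bta-miR-19b, the most abundant of the 4, was measured in sera at 1010.6, 1223.4, 1367.2 and 912.9 RPM in cows 1 to 4, from 270 to 722 reads a library. In exosomes of the same cows it was at 1565.5, 1302.1, 1191.0 and 1211.1 RPM, from 95 to 191 reads. The sample types overlapped, with the exosome value above the serum value in 3 of 4 cows and below it in cow 3. Within cows the exosome value was 0.871 to 1.55 times the serum value. The mean was 1129 ± 205 RPM over sera and 1317 ± 172 RPM over exosomes (SD, n = 4).

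bta-miR-19a, encoded between MIR18A and MIR20A, was at 213.3, 337.2, 343.7 and 237.8 RPM in sera of cows 1 to 4. Its exosome values were 543.8, 335.3, 380.7 and 431.2 RPM, from 33 to 68 reads a library. Exosomes were above sera beyond the counting intervals in cow 1 (2.55 times) and cow 4 (1.81 times), and within them in cow 3 (1.11 times) and cow 2 (0.994 times). The lowest exosome value was below the highest 2 serum values, so the groups overlapped. Sera averaged 283 ± 67.1 RPM and exosomes 423 ± 89.7 RPM.

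bta-miR-18a, the neighbour of bta-miR-19a in the same primary RNA, was at 116.0, 127.1, 166.2 and 109.9 RPM in sera, from 31 to 75 reads. In exosomes it was at 98.9, 85.8, 87.9 and 120.5 RPM, from only 6 to 19 reads. The serum value was the higher one in cows 1, 2 and 3 and the exosome value in cow 4, and the groups overlapped. The means were 129.8 ± 25.3 RPM and 98.3 ± 15.9 RPM. The coefficient of variation among exosome libraries, 16.2%, was below the 32.4% that counting error alone gives at this depth, so the spread between cows could not be resolved there.

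bta-miR-18b, the miR-18 of the paralog cluster, was near the limit of detection. It had 1, 13, 4 and 5 reads in sera of cows 1 to 4, or 3.7, 22.0, 15.1 and 11.2 RPM. In exosomes it had 2 reads in cow 2, or 15.6 RPM, and 0 reads in cows 1, 3 and 4. With 0 reads, a level of up to 49.4, 29.3 and 19.02 RPM (3 reads) remained possible in these 3 libraries, above the serum level of the same cow each time. At its serum share, 0.225, 2.82, 1.55 and 1.77 exosome reads would have been counted in cows 1 to 4. Pooled over the cows, 23 of 1567954 reads in sera and 2 of 449083 reads in exosomes were bta-miR-18b, a ratio of 3.29 (95% exact interval for counting error 0.814 to 28.8), so a difference was not detectable at this depth.

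**Figure D1:**
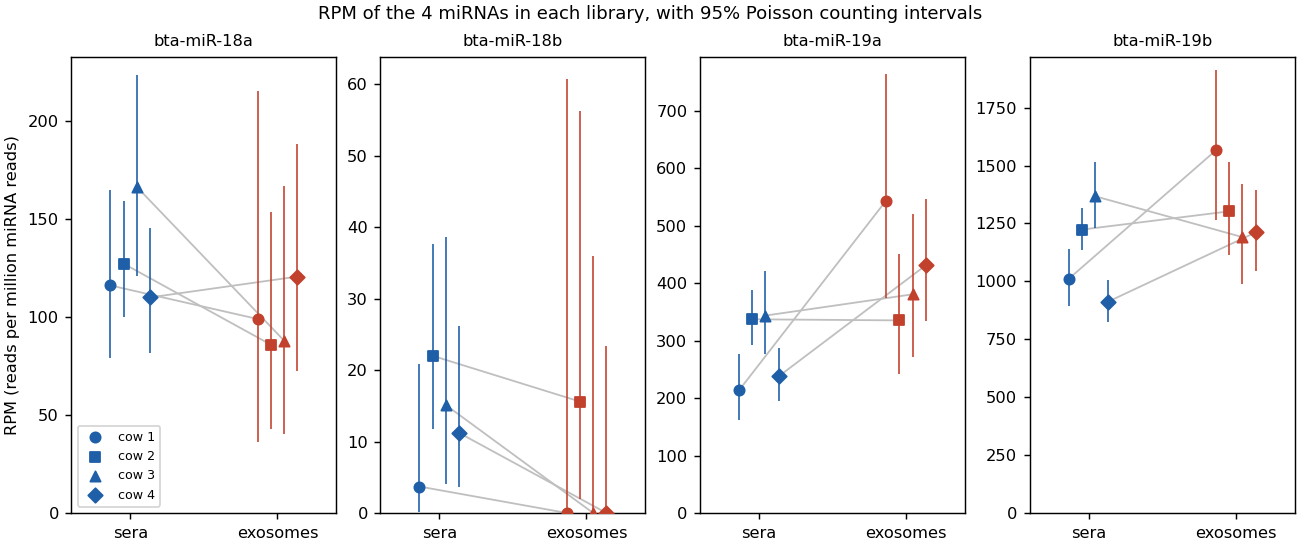
RPM of each miRNA in the 4 sera (blue) and 4 exosome (red) libraries, 1 panel per miRNA with its own axis from 0; symbols stand for cows 1 to 4, grey lines join the libraries of a cow and bars are 95% Poisson counting intervals. bta-miR-19a lay higher in exosomes in cows 1 and 4, and bta-miR-18b was at 0 in the exosomes of cows 1, 3 and 4.

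The spread among cows was compared with counting error. For bta-miR-19b the coefficient of variation among sera was 18.2%, against 5.03% from counting, and among exosomes 13.1% against 8.63%. For bta-miR-19a it was 23.7% against 10.2% in sera and 21.2% against 15.2% in exosomes. Cows 2 and 3 had the higher serum levels of both miR-19 and cows 1 and 4 the lower ones.

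None of the 4 miRNAs differed between sera and exosomes in the unblocked test (limma on log2(RPM + 1), false discovery rate (FDR) under 0.05 after Benjamini-Hochberg adjustment over 365 miRNAs). That test called 25 miRNAs, or 6.85% of those tested, 19 higher in sera and 6 in exosomes. With the further limit of a log2 fold change (log2FC, sera minus exosomes) over 1 or under -1 it called 16, or 4.38%. At an unadjusted p under 0.05 it gave 94 miRNAs, bta-miR-18b among them. Likewise, none of the 4 had sample types without overlap in RPM, against 52 of 365, or 14.2%.

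The estimates pointed to different sides. bta-miR-19a had a log2FC of -0.59 (SE 0.28, 95% interval -1.18 to 0.01, limma FDR = 0.196), toward exosomes. bta-miR-19b had a log2FC of -0.23 (SE 0.20, interval -0.67 to 0.21, limma FDR = 0.508). bta-miR-18a had a log2FC of 0.39 (SE 0.37, interval -0.41 to 1.19, limma FDR = 0.566), toward sera. For bta-miR-18b the fitted 2.58 (SE 1.08, interval 0.25 to 4.91, limma FDR = 0.157) depends on the pseudocount, because 3 exosome libraries were at 0, and it ranged from 0.80 with a pseudocount of 10 to 4.95 with 0.1. Without the exosome library of cow 2, which holds its only exosome reads, the limma estimate was 3.59 with an FDR of 0.0303.

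The centre of all miRNAs was not at 0. The median log2FC was 0.57 over the 365 miRNAs and 0.31 over the 128 that had 10 or more reads in each library. Relative to the latter, bta-miR-19a was at -0.89, bta-miR-19b at -0.54 and bta-miR-18a at 0.08. This median moved to 0.11 with TMM scaling and to -0.39 when limma was run on reads scaled to all sequences in analysis, and relative to it bta-miR-19a was then at -0.89 and -0.85, and bta-miR-19b at -0.54 both times. Counted from the miRNA highest in exosomes, bta-miR-19a stood at place 36 and bta-miR-19b at place 54 of 365, while bta-miR-18a stood at place 157. The median over the 4 was 0.08. Against the 0.57 of all 365, bta-miR-18a, bta-miR-19a and bta-miR-19b were below. Only bta-miR-18b was above, with an estimate that depends on the pseudocount.

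Because both libraries of a cow come from 1 serum, the test was repeated with the cow as a block, and bta-miR-19a then passed. Its limma FDR with the replicate block was 0.0231 at the same log2FC of -0.59, and it was the only one of the 4 among 96 called miRNAs, or 26.3% of those tested. On read counts recovered from the RPM values, edgeR with TMM scaling and the same block gave bta-miR-19a a log2FC of -0.77 (FDR = 0.000935) and bta-miR-19b one of -0.44 (FDR = 0.0176), with 79 miRNAs, or 21.6%, called. Without the block edgeR called 18 miRNAs, or 4.93%, and none of the 4 (bta-miR-19a, edgeR FDR = 0.10). DESeq2 on recovered reads, also without the block, called 28 of the 365 miRNAs, or 7.67%, with bta-miR-19a among them (log2FC -0.87, FDR = 0.0125). It gave no FDR to 124 of the 365, so the share among those that received one was larger. These estimates of miR-19 stayed within 1 on the log2 scale, but other scalings in limma without the block moved them further toward exosomes without an FDR under 0.05. Scaled to all sequences in analysis, bta-miR-19a was at -1.25 (limma FDR = 0.222) and bta-miR-19b at -0.93 (limma FDR = 0.294). Relative to bta-miR-93, bta-miR-19a was at -1.004 (limma FDR = 0.288) and bta-miR-19b at -0.65 (limma FDR = 0.424). This reference was itself higher in sera in each of the 4 cows (log2FC 0.42, limma FDR = 0.196), and that value is subtracted from every estimate. Neither miR-18 was called by any of these fits, although bta-miR-18b received no FDR from DESeq2. Of the calls by limma without the block, 24% were higher in exosomes on RPM, 33.3% with TMM scaling (12 in sera, 6 in exosomes) and 100% of 6 when scaled to all sequences in analysis. With another test as well, the share was 44.4% by edgeR with TMM and 57.1% by DESeq2.

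The other mature miRNAs of these clusters and of miR-106b-25, another paralog cluster, were read beside them. By limma without the block, 2 of these 10 were called, both higher in sera, and none in exosomes, against 19 (5.21%) and 6 (1.64%) of all 365. The median log2FC of the 10 was 0.83, against 0.57 over all 365. By DESeq2 that median was 0.35 with none called in sera and 1 in exosomes, and in limma scaled to all sequences in analysis it was 0.07 with none called. bta-miR-17-5p, the first miRNA of the miR-17-92 primary RNA, was at 778.5, 830.3, 1318.1 and 684.1 RPM in sera and at 395.5, 343.1, 654.0 and 418.5 RPM in exosomes. Every serum value was above every exosome value, with a log2FC of 0.99 (SE 0.27, limma FDR = 0.0426). This call was lost in 7 of the 8 fits that left out 1 library (limma FDR 0.0612 to 0.128), with the exception of the exosome library of cow 3 (FDR = 0.0220), and also with TMM scaling (limma FDR = 0.0911). bta-miR-106b, which shares the seed of miR-17, averaged 1672 ± 289 RPM in sera against 868 ± 39.6 RPM in exosomes (log2FC 0.93, limma FDR = 0.0111, lost with TMM scaling, FDR = 0.0772).

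On the other side, bta-miR-92a, encoded in both clusters, ranged from 48447.1 to 56999.6 RPM across sera and from 61550.4 to 98087.6 RPM across exosomes. In each of the 4 cows the exosome value was the higher one, as for 15 of the 365 miRNAs. Over the 365 miRNAs its log2FC of -0.59 did not pass without the block (limma FDR = 0.132) and passed with it (limma with the replicate block, FDR = 7.32e-05). It also passed without the block when only the 128 miRNAs with 10 or more reads in each library were tested (limma FDR = 0.0398). That fit called 37 of the 128. bta-miR-20a, which also carries the miR-17 seed, averaged 470 ± 108 RPM in sera against 297 ± 128 RPM in exosomes (log2FC 0.72, limma FDR = 0.17). With the block, limma called 4 of the 10 higher in sera and 1 in exosomes, against 84 (23.0%) and 12 (3.29%) of all 365. Among the miRNAs encoded in the miR-17-92 cluster alone, the estimate of bta-miR-19a lay on the exosome side of 0 and those of bta-miR-17-5p, bta-miR-17-3p, bta-miR-18a and bta-miR-20a on the serum side. However, bta-miR-18a (0.39) and bta-miR-17-3p (0.44) were below the median of 0.57 over all 365 miRNAs. They were above the 0.31 of the 128 miRNAs that had 10 or more reads in each library. bta-miR-19b and bta-miR-92a, encoded in both clusters, lay on the exosome side. When scaled to all sequences in analysis, the serum-side estimate of bta-miR-18a turned to -0.29 and those of bta-miR-17-5p and bta-miR-20a were 0.28 and 0.01.

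**Figure D2:**
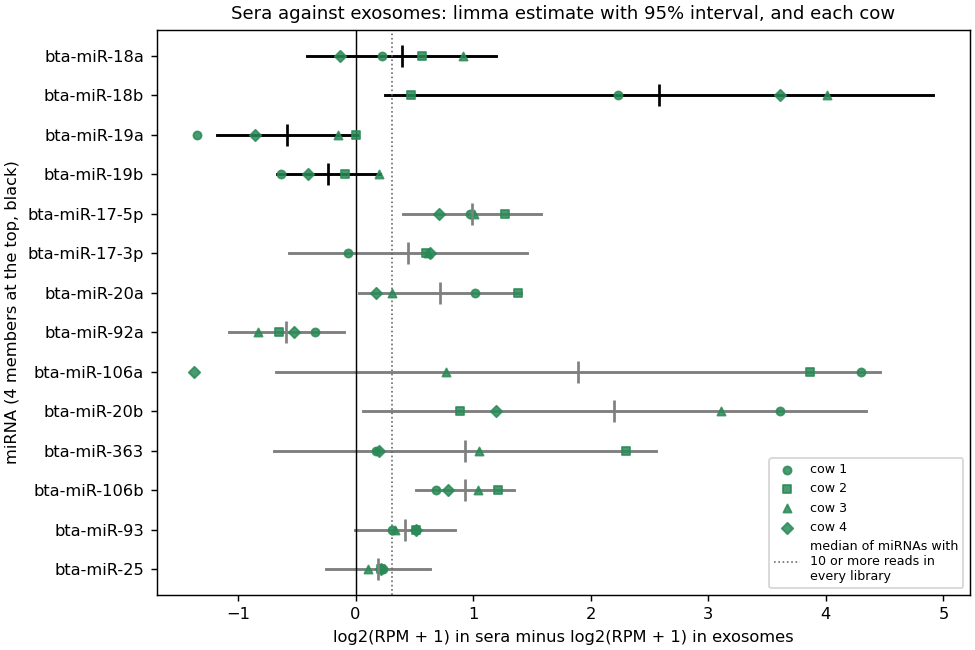
Log2FC of log2(RPM + 1), sera minus exosomes, for the 4 miRNAs (black) and the 10 other mature miRNAs of the clusters (grey), as the limma estimate (tick) with its 95% interval (line) and the difference in each cow (green symbols); the dotted line at 0.31 is the median of the 128 miRNAs that had 10 or more reads in each library. The estimates of bta-miR-19a, bta-miR-19b and bta-miR-92a lie left of 0, and bta-miR-17-5p and bta-miR-106b lie right of it in every cow.

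Ratios between miRNAs of 1 library do not depend on the denominator of RPM, so miR-19 was next compared with its neighbours within libraries. The 10 ratio comparisons were tested by exact permutation (two-sided, 70 assignments of the libraries), in which p cannot go below 0.0286, and adjusted over the 10 by Benjamini-Hochberg. They share miRNAs and are not independent of each other. In 5 of the 10 the sample types did not overlap, each with exact permutation p = 0.0286 and adjusted p = 0.0571, and none passed 0.05 after adjustment. With 5 of the 10 at the lowest possible p, the adjusted p could not go below 0.0571. Not passing therefore depended on the number of libraries, on the number of comparisons and on how many of the ratios overlapped between the sample types. Flipping signs within cows (exact) gave p = 0.125 for each of these 5, and 4 pairs cannot give less.

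The reads of bta-miR-19a per read of bta-miR-18a were 1.84, 2.65, 2.07 and 2.16 in sera of cows 1 to 4. In exosomes the ratios were 5.50, 3.91, 4.33 and 3.58. All exosome ratios were above all serum ratios, on average 1.98 times (log2 ratio 1.11 ± 0.22 in sera and 2.09 ± 0.27 in exosomes, SD, n = 4). The ratio of bta-miR-19b to bta-miR-18a was 8.23 to 9.63 in sera and 10.1 to 15.8 in exosomes. It was on average 1.55 times higher in exosomes, again without overlap. Its nearest values, 9.63 in the serum of cow 2 and 10.1 in the exosomes of cow 4, rest on 75 and 19 reads of bta-miR-18a. All exosome ratios with bta-miR-18a rest on only 6 to 19 of its reads a library. Counting error alone gives bta-miR-18a a coefficient of variation of 32.4% there, and it was not carried into the ratios. Of the same 128 deeply read miRNAs, 20, or 15.6%, had a ratio to bta-miR-18a without overlap. When bta-miR-19a was the reference instead, 62 of 127, or 48.8%, had a ratio without overlap.

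Relative to bta-miR-17-5p the shift was larger. On RPM, bta-miR-17-5p had a log2FC of 0.99, against -0.59 for bta-miR-19a and -0.23 for bta-miR-19b. Relative to the median of the 128 miRNAs with 10 or more reads in each library, these were 0.68, -0.89 and -0.54. How much of the shift belongs to each miRNA therefore depends on the zero chosen. The ratio of bta-miR-19a to bta-miR-17-5p was 0.274, 0.406, 0.261 and 0.348 in sera and 1.37, 0.977, 0.582 and 1.03 in exosomes of cows 1 to 4. The exosome ratio was higher in each cow, on average 2.99 times. For bta-miR-19b the ratio was 1.04 to 1.47 in sera and 1.82 to 3.96 in exosomes, on average 2.34 times higher. A ratio to bta-miR-17-5p without overlap was found for 38 of 127 miRNAs, or 29.9%. bta-miR-18a, by contrast, overlapped in its ratio to bta-miR-17-5p (0.126 to 0.161 in sera, 0.134 to 0.288 in exosomes, exact permutation p = 0.114, adjusted p = 0.163), although it was higher in exosomes in each cow.

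Relative to bta-miR-92a, bta-miR-19a showed no shift in either direction. Its level was 0.440%, 0.592%, 0.622% and 0.460% of that of bta-miR-92a in sera, and 0.884%, 0.374%, 0.388% and 0.580% in exosomes. The ratio was higher in exosomes in cows 1 and 4 and in sera in cows 2 and 3, with a difference in mean log2 ratio of 0.00 (exact permutation p = 1). The cows differed by -1.005 to 0.68 on the log2 scale, so a change of that size in a single cow was present even though the mean was near 0. bta-miR-18a was at 0.212% to 0.301% of bta-miR-92a in sera and 0.0896% to 0.162% in exosomes, without overlap, a difference of 0.98 on the log2 scale. A ratio to bta-miR-92a without overlap was found for 57 of 127 miRNAs, or 44.9%. For bta-miR-19b the ratio to bta-miR-92a overlapped (difference 0.35, exact permutation p = 0.229, adjusted p = 0.286).

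**Figure D3:**
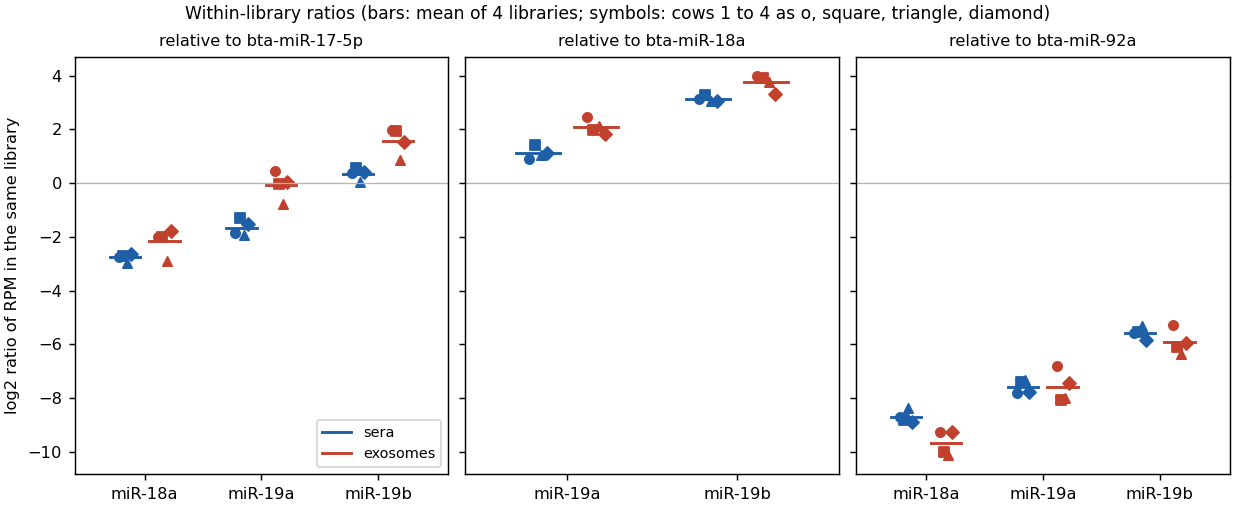
Log2 ratio of the RPM of bta-miR-18a, bta-miR-19a and bta-miR-19b to bta-miR-17-5p (left), bta-miR-18a (middle) and bta-miR-92a (right) in each library of sera (blue) and exosomes (red); symbols stand for cows 1 to 4 (circle, square, triangle, diamond) and bars for the mean of 4 libraries. Both miR-19 are separated between sample types relative to bta-miR-17-5p and bta-miR-18a, but overlap relative to bta-miR-92a.

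Between the members of a pair, no difference passed. bta-miR-19b had 4.74, 3.63, 3.98 and 3.84 times the reads of bta-miR-19a in sera and 2.88, 3.88, 3.13 and 2.81 times in exosomes. The ratio was lower in exosomes in cows 1, 3 and 4 and higher in cow 2 (difference in mean log2 ratio 0.35, exact permutation p = 0.0857, adjusted p = 0.143). bta-miR-18b was 3.13%, 14.8%, 8.33% and 9.26% of the miR-18 reads in sera and 0%, 15.4%, 0% and 0% in exosomes, a difference of 5.03 percentage points in the mean (exact permutation p = 0.314, adjusted p = 0.349). The difference was 3.06 points without the serum of cow 2 and 8.87 points without the exosomes of cow 2. Pooled, it was 10.4% of the miR-18 reads in sera and 4.26% of the 47 in exosomes.

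The miRNA most like each miR-19 across the 8 libraries was the other miR-19. Over the 127 other miRNAs read this deeply, Pearson's r of log2(RPM + 1) between bta-miR-19a and bta-miR-19b was 0.856, the highest for either. After it came bta-miR-21-3p (0.782) and bta-miR-328 (0.763) for bta-miR-19a, and bta-miR-484 (0.762) and bta-miR-21-3p (0.685) for bta-miR-19b. Of the cluster neighbours, bta-miR-92a was at place 11 for bta-miR-19a (r = 0.485) and place 25 for bta-miR-19b (r = 0.322). bta-miR-17-5p, from the same primary RNA, was at place 94 for bta-miR-19a (r = -0.448) and place 77 for bta-miR-19b (r = -0.251). These r describe 8 libraries that share a denominator, 4 cows and 2 sample types, and bta-miR-18a and bta-miR-18b were left out because they had fewer than 10 reads in some libraries.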

How the data were processed

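Adaptor-trimmed reads over 15 nt, filtered by CASAVA 1.8, were aligned by the authors, library by library, with sRNAbench against miRBase. The deposited values are RPM, normalised to the mapped miRNA reads, with 1 table per library. Such shares cannot show a change in the amount of miRNA per volume of serum. Read counts were recovered from the step between values (100% whole within 0.1 read).

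The 4 miRNAs, the cluster and marker lists and the named miRNAs were chosen with earlier results of these data known. Named besides the 4 were the 10 other mature miRNAs of the 3 clusters and the 3 most correlated miRNAs of each member with at least 10 reads in every library. Differential expression was tested with limma 3.58.1 (lmFit, eBayes with trend) on log2(RPM + 1) over the 365 miRNAs that exceeded 1 RPM in 2 or more cattle of either type. Alternatives were edgeR 4.0.16 (quasi-likelihood) and DESeq2 1.42.0 on recovered reads (124 miRNAs received no FDR), TMM, totals of sequences in analysis (from the study's table of reads), bta-miR-93 as reference, pseudocounts of 0.1 and 10, other filters, identical miRNAs counted once, the cow as block and each library left out. Sera and exosomes were paired by cow, since the study isolated exosomes from those sera. Deviations from the sample-type mean correlated between libraries of the same cow (mean r = 0.807, range 0.740 to 0.860, over 128 miRNAs). Libraries of 1 type differed by more than counting error (chi-square per degree of freedom at least 29.2). Permutation tests used NumPy 2.4.6 and pandas 2.3.3 in Python 3.11.15, counting intervals SciPy 1.17.1, model fits R 4.3.3, and plots matplotlib 3.10.9. No sequences, coordinates or RT-qPCR values were used here.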

Additional observations from a re-analysis of the deposited data

Results flagged for a closer look

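In the exosomes, bta-miR-18b was at 15.6 RPM in cow 2 and at 0 in the other 3 libraries, so this library was flagged. For the same reason its share of the miR-18 reads, 15.4% in the exosomes of cow 2 and 0% in the others, was flagged. Both values rest on the same 2 reads, where 2.82 would have been counted at the serum share of cow 2. With the other 3 libraries at 0, any value above 0 passes this test, so the flags do not show that the library is unusual. Among 48 groups of 4 libraries examined by Dixon's test these were the only 2 that passed, against 2.4 that chance gives.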

How the results depend on the processing

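Of 231 alternative values, 213 kept their direction and their side of the threshold (counts stayed within 1.5 times). These 213 include ratio comparisons that could not pass the threshold, with 1 library left out or with signs flipped within cows. They also include ratios of mean RPM and the share of pooled reads, which had no p-value. For such values the side of the threshold was not tested, so the 213 is no measure of the stability of the ratio calls. The cow as a replicate block brought bta-miR-19a past the threshold (limma, log2FC -0.59) and raised the calls from 25 to 96, and from 16 to 35 with the fold limit. In edgeR with TMM the replicate block gave 79 calls, 26 with the fold limit, with bta-miR-19a at -0.77 and bta-miR-19b at -0.44; DESeq2 without a block called bta-miR-19a at -0.87. The block changed no call on miR-18. When scaled to all sequences in analysis, 6 miRNAs were called, all 6 past the fold limit, and bta-miR-18a reversed to -0.29. Relative to bta-miR-93, whose own log2FC of 0.42 is subtracted from each estimate, bta-miR-18a reversed to -0.027. This last scaling left 7 calls. With each library left out in turn, bta-miR-18b ranged from 2.24 to 3.59, called only without the exosomes of cow 2, and the number of calls ranged from 15 (without the serum of cow 2) to 31. The log2 ratio of bta-miR-19a to bta-miR-92a, near 0, ranged from -0.16 to 0.25 and reversed to -0.06, -0.08, -0.16 and -0.14 without the serum of cows 2 and 3 and the exosomes of cows 2 and 3. The cause of these changes was not tested. The filter of 10 reads in every library gave no value for miR-18. That the adjusted p sets the call for ratios was decided after seeing the values. With 1 library left out, exact p-values of ratios cannot go below 0.0571, so they say nothing of stability. Exosome depth limits both miR-18, with 45 reads in all for bta-miR-18a and 2 for bta-miR-18b.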
